A study of Mus musculus with 45 samples.

Results

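The 10 genes taken here to mark disease-associated microglia, called DAM genes, were followed through every library of the series: Apoe, Trem2, Tyrobp, Cst7, Lpl, Clec7a, Spp1, Gpnmb, Igf1 and Cd9. They were taken as a list of known names, not by a threshold on any value. All 10 were present in each of the 3 count tables, out of 42929 gene identifiers that the tables share. The series held 45 libraries from C57BL/6 mice. In the first table, microglia were sorted from neonatal coronal brain slices kept for 2 weeks in organotypic culture and then held for 24 h in medium alone (9 libraries), in 50 ng/mL tumor necrosis factor (TNF, 11 libraries) or in 20 ng/mL granulocyte-macrophage colony-stimulating factor (GM-CSF, 9 libraries). The second table held microglia sorted from female mice aged 10 to 15 weeks, 24 h after intraperitoneal injection of 1 mg/kg lipopolysaccharide (LPS, 4 libraries) or phosphate-buffered saline (PBS, 4 libraries). In the third, whole brain tissue of mice of that age range was taken 24 h after the same LPS dose (4 libraries) or without treatment (4 libraries), so that its controls had not been injected. Per the labels 3 slices were pooled for each slice library, and both kinds of microglia were gated as CD11b high and CD45 intermediate. By the study's legends the adult libraries came from independent mice, and the slice libraries pooled 2 to 3 independently treated slices each and came from 4 independent experiments. No label ties a slice library to an experiment, and whether the 4 codes in the slice titles (1A, 1B, 2A, 2B) are those experiments is not given. The main fit did not include the code, and a fit with the code as a factor is given where it changed a call. The p-values for slices measure the spread between these libraries.

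Microglia that meet amyloid, myelin debris or dying cells switch on a shared set of genes while genes of resting microglia decline. TREM2 is a lipid-sensing surface receptor and TYROBP (DAP12) is the adaptor that carries its signal. APOE, a lipoprotein component, is both a ligand of TREM2 and one of the most abundant products of these cells, and lipoprotein lipase, encoded by Lpl, releases fatty acids from lipoproteins. CLEC7A (dectin-1) is a receptor for beta-glucans, SPP1 (osteopontin) and IGF1 are secreted factors, CST7 (cystatin F) inhibits cysteine cathepsins, GPNMB is a glycoprotein of lysosomes and the cell surface, and CD9 is a tetraspanin. In models of amyloid disease part of the set depends on TREM2, and the same genes are also used by microglia of the early postnatal brain.

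The genes lie on 7 chromosomes (GRCm38, GENCODE M21 annotation). Trem2 is at chr17:48346401-48354147, Tyrobp at chr7:30413760-30417585 and Clec7a at chr6:129461591-129472779, where the annotation classes Clec7a as a polymorphic pseudogene. Apoe lies at chr7:19696109-19699188 and Lpl at chr8:68880491-68907448. Spp1 is at chr5:104435118-104441050, Igf1 at chr10:87858265-87937042, Cst7 at chr2:150570415-150578944, Gpnmb at chr6:49036546-49070929 and Cd9 at chr6:125460266-125494791. The exons of Spp1 share 309 bases with Gm42793 on the same strand, and those of Cd9 share 218 bases with Gm26728 on the opposite strand. Reads from these stretches cannot be assigned to 1 gene with certainty.

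RefSeq promoter windows (GRCm38.p6, 250 bases before to 50 bases after a start site) were on hand for 8 of the 10 genes, 12 windows in all, and were searched on both strands for 5 motifs. The motif TGANTCA, a looser form of the AP-1 site that accepts any middle base, was found in 7.81% of all 32851 windows. Of the 12 windows 4 held it, for 4 genes, as TGACTCA in Gpnmb, TGATTCA in Cst7 and TGAATCA in Igf1 and Trem2. The stretches around it are shown because this motif was found for the most DAM genes, among them Cst7 and Trem2, which moved in opposite directions with TNF. The motif is in capitals and its first base is counted from the start site.
Cst7, chr2:150570397-150570426, plus strand, motif from position -6: ttctggttaaaaTGATTCAgcaagaaacca
Gpnmb, chr6:49036514-49036543, plus strand, motif from position 9: gccaggggcaagTGACTCAtgagcacgagt
Igf1, chr10:87861062-87861091, plus strand, motif from position -37: ggagctggaactTGAATCActattctggat
Trem2, chr17:48346380-48346409, plus strand, motif from position -9: cttctccctcctTGAATCAcagcgcctacc
The interferon response motif GAAANNGAA was found in 3 of the 12 windows, for 3 other genes, Apoe, Cd9 and Spp1, and in 8.56% of all windows.
Apoe, chr7:19699292-19699321, minus strand, motif from position -122: gaccccgcgggGAAAGGGAAggagcggttc
Cd9, chr6:125494869-125494898, minus strand, motif from position -127: gcactgagggtGAAACCGAAgtcccagaac
In Spp1 the motif lay on the opposite strand, at position -156, and 1 Spp1 window also held the PU.1 motif GAGGAAGT (3.20% of all windows). The E-box CACGTG (7.15% of all windows) and the NF-kB motif GGANTTTCC (1.25%) were in none of the 12 windows. The matches of Spp1 did not overlap each other, and a match or its absence describes only the letters of these windows.

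The libraries of slice microglia held 5973364 to 9165485 counts each. Those of adult microglia held 11391564 to 14216005 and those of brain tissue 8199863 to 10368578. Levels are in CPM, the usual depth-scaled unit of counts, with library sizes corrected by the trimmed mean of M-values (TMM) within each table, so levels of different tables stand side by side without a test. All 10 microglia markers fixed for the check were detected in both kinds of sorted microglia, with a summed level of 21885 to 30674 CPM in medium and 61595 to 69400 CPM in PBS microglia. In untreated brain tissue the same markers summed to 317 to 364 CPM. Markers of neurons were at 2.14 to 12.4 CPM in medium and at 6361 to 6543 CPM in untreated brain tissue.

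In slice microglia in medium all 10 DAM genes stood within the first 402 places of genes ranked by mean CPM, and in PBS microglia of the adult several of them were scarce. Together the 10 genes took 3.11% to 5.42% of the counts of a medium library and 0.382% to 0.399% of those of a PBS library. In this ranking Apoe stood at place 1 and Spp1 at place 7 among the 21317 genes above 0 in medium. In PBS microglia, with 23204 genes above 0, Apoe stood at place 630 and Spp1 at place 11984. Trem2 (place 58 in medium, 53 in PBS microglia) and Cd9 (45 and 74) stood at similar places in both. The groups differ in age, in culture, in sequencing run and in being whole-number or estimated counts, and these cannot be told apart.

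Per kilobase of exon, which allows levels of different genes to be compared, Apoe was highest in medium with 10479 ± 2656 CPM per kilobase (mean ± SD, n = 9). Spp1 followed with 5111 ± 2973 and Tyrobp with 3535 ± 263, and the ranges of these neighbours overlapped. Cd9 (971 ± 121), Cst7 (588 ± 89.9) and Trem2 (339 ± 33.5) came next, each with a range apart from its neighbours. Lpl (218 ± 49.5), Clec7a (158 ± 24.5) and Gpnmb (143 ± 44.3) overlapped in sequence, and Igf1 was lowest with 36.3 ± 10.0 CPM per kilobase. In PBS microglia the order was another one: Tyrobp (1519 ± 32.2, n = 4), Cd9 (557 ± 19.9), Trem2 (298 ± 9.17) and Apoe (114 ± 21.3) led, Cst7 stood at 7.95 ± 0.886 and Clec7a at 7.01 ± 2.06 with overlapping ranges, and Lpl (2.32 ± 0.455) and Spp1 (0.771 ± 0.213) followed. The order depended on the length used. Per kilobase of the principal transcript, Lpl in medium was at 554 CPM per kilobase, above Trem2 (350) and near Cst7 (588), and Gpnmb (252) was above Clec7a (183). In PBS microglia that length put Clec7a (8.12) above Cst7 (7.95). Igf1 and Gpnmb were near 0 there, with 39 and 2 counts summed over the 4 PBS libraries.

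**Figure D1:**
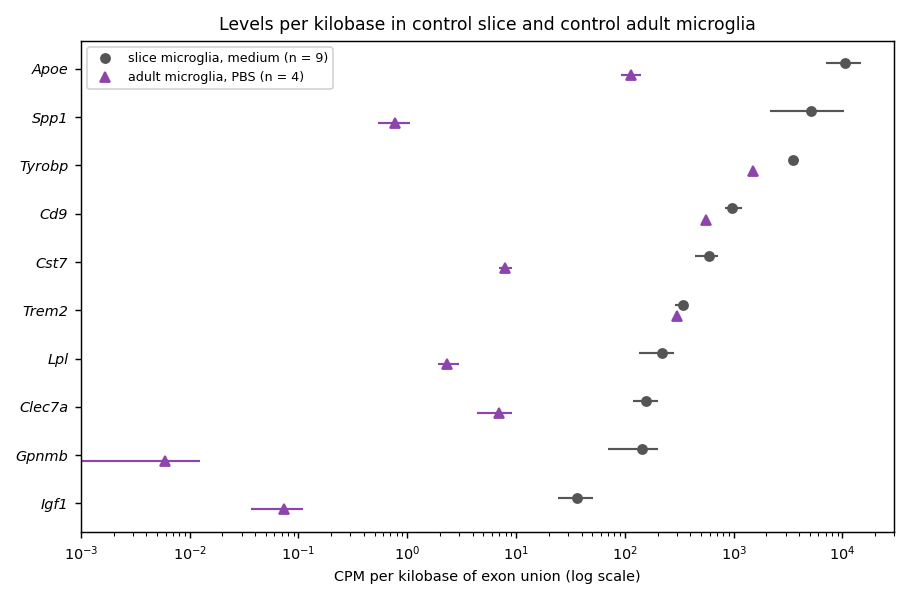
Level of each DAM gene per kilobase of exon union (CPM per kilobase, log scale) in slice microglia in medium (circles, n = 9) and in PBS microglia of the adult (triangles, n = 4). Symbols are means and lines run from the lowest to the highest library (the lowest Gpnmb value in PBS microglia was 0 and is drawn at the axis edge). Trem2 stood at 339 and 298 CPM per kilobase, while Spp1 stood at 5111 and 0.771.

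With TNF, some DAM genes fell and 1 of them rose. Against medium, 3 of the 10 genes fell (Trem2, Apoe, Gpnmb; 11.7% of the 11313 genes tested fell) and 1 rose (Cst7; 9.10% of all genes rose), with a call defined as an adjusted p under 0.05 and a change of more than 1.5-fold in edgeR's quasi-likelihood test. All 10 genes passed the filter on low counts. Trem2, the receptor, had 1432 to 1898 CPM (median 1685) in the 9 medium libraries and 586 to 881 CPM (median 739) in the 11 TNF libraries. No TNF library reached the lowest medium library. The log2 fold change of Trem2 was -1.16 (SE 0.07, adjusted p = 8.05e-16, edgeR). Tyrobp, its adaptor, moved less, from 2187 to 2633 CPM (median 2290) in medium to 1590 to 2023 CPM (median 1868) in TNF. All 11 TNF libraries were below every medium library for Tyrobp, yet the 1.25-fold difference was under the fold limit (log2 fold change -0.33, SE 0.06, adjusted p = 2.33e-05, edgeR).

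Apoe ranged from 15039 to 31623 CPM (median 24808) in medium and from 4969 to 15794 CPM (median 12773) in TNF. In 10 of 11 TNF libraries it was below every medium library, and the log2 fold change was -1.08 (SE 0.21, adjusted p = 0.000143, edgeR). Lpl, the lipase, was not called, with 1409 to 2938 CPM in medium and 1497 to 3625 CPM in TNF (log2 fold change 0.21, 95% interval -0.08 to 0.49 as the estimate ± 1.96 SE). Cst7, the cathepsin inhibitor, was the member that rose. It had 435 to 704 CPM (median 558) in medium and 829 to 1360 CPM (median 1050) in TNF, without overlap. On the log2 scale it was 0.85 higher (SE 0.09, adjusted p = 3.11e-09, edgeR).

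Gpnmb fell from 460 to 1304 CPM (median 844) in medium to 398 to 919 CPM (median 526) in TNF. The groups overlapped, with 3 of 11 TNF libraries below every medium library (log2 fold change -0.64, SE 0.18, adjusted p = 0.00538, edgeR). With the 4-level code in the sample titles (1A, 1B, 2A, 2B) as a factor this value became -0.56, under the fold limit. Spp1 and Igf1, the secreted factors, were not called. Their log2 fold changes were 0.18 (95% interval -0.40 to 0.76) for Spp1 and -0.03 (-0.40 to 0.34) for Igf1. Clec7a (0.29, adjusted p = 0.0380, edgeR) and Cd9 (-0.20, adjusted p = 0.0306, edgeR) stayed under the fold limit.

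With GM-CSF, 4 DAM genes fell (Trem2, Apoe, Gpnmb, Igf1) and 0 rose past the limits (5.96% of all genes tested fell and 4.84% rose). This comparison used the same medium libraries as the one for TNF, so its values are given beside those for TNF and not as an independent repeat. Trem2 had 815 to 1051 CPM (median 925) in GM-CSF, again below every medium library in 9 of 9 (log2 fold change -0.89, SE 0.07, adjusted p = 1.92e-11, edgeR). Apoe had 5123 to 16330 CPM (median 13693), below every medium library in 6 of 9 (log2 fold change -0.82, SE 0.225, adjusted p = 0.00685). Gpnmb had 400 to 931 CPM (median 591), below every medium library in 3 of 9 (log2 fold change -0.71, SE 0.19, adjusted p = 0.00661). Among title codes 1A and 1B alone, with 4 GM-CSF and 4 medium libraries, Apoe (-0.949, adjusted p = 0.124, edgeR) and Gpnmb (-0.685, adjusted p = 0.132) were no longer called.

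Igf1, a growth factor of microglia and neurons, was the member that fell with GM-CSF while its TNF value was near 0. It had 242 to 501 CPM (median 325) in medium, 235 to 564 CPM (median 321) in TNF and 88.3 to 272 CPM (median 168) in GM-CSF. In 8 of 9 GM-CSF libraries it was below every medium library (log2 fold change -1.02, SE 0.20, adjusted p = 0.000244, edgeR). Clec7a came close to the fold limit from the other side, with 314 to 527 CPM (median 409) in medium and 438 to 849 CPM (median 603) in GM-CSF. Its 1.47-fold difference (log2 fold change 0.56, SE 0.12, adjusted p = 0.000413, edgeR) was not called, but on the scale of total counts it was 0.665 and passed. Tyrobp (-0.35, adjusted p = 3.68e-05) and Cd9 (-0.25, adjusted p = 0.0159) were lower by less than the fold limit, and Lpl (0.23), Spp1 (0.33) and Cst7 (-0.04) were not called.

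**Figure D2:**
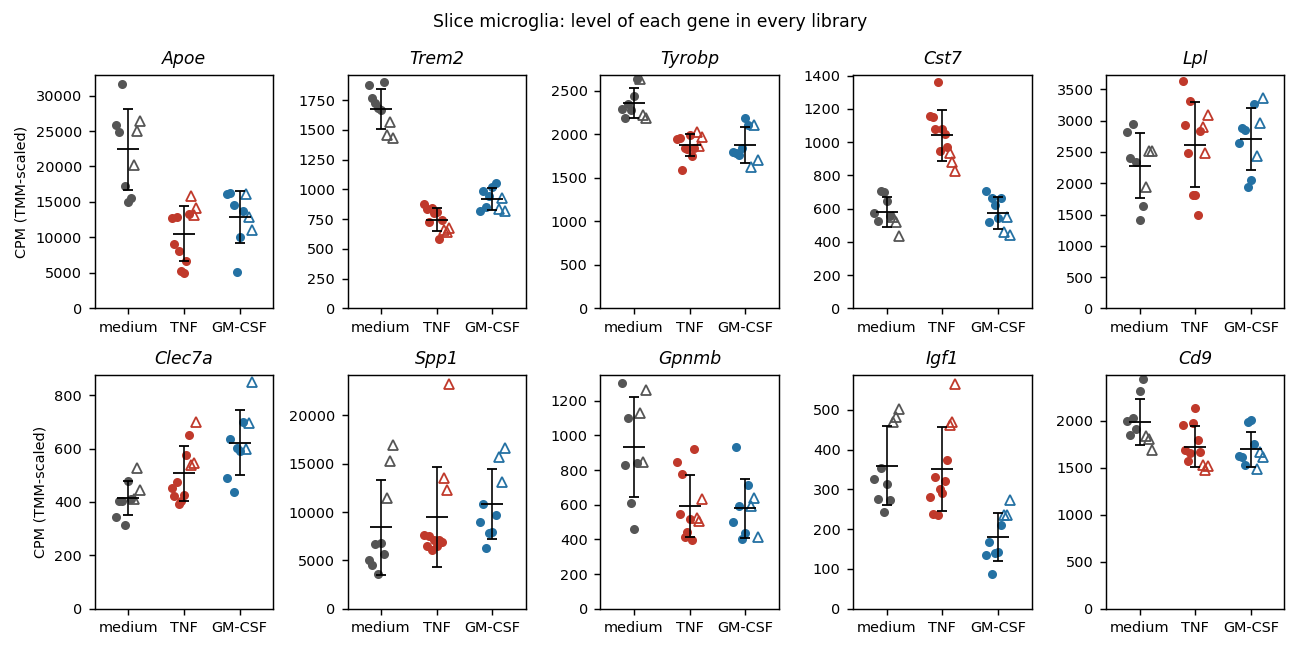
Level of each DAM gene (CPM, linear axis from 0) in every slice microglia library in medium (n = 9), TNF (n = 11) and GM-CSF (n = 9), with mean and SD bars. Open triangles are libraries with the title code 2B and filled circles those with the other codes. Trem2 in TNF (586 to 881 CPM) and GM-CSF (815 to 1051) lay below every medium library (1432 to 1898), and the 2B libraries had the highest Spp1 levels in each group.

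The cytokines were then compared with each other. Of the 10 genes, 2 were higher in TNF than in GM-CSF (8.25% of all genes) and 0 were lower past the limits (7.96% of all genes). Cst7 was 0.89 higher on the log2 scale (SE 0.09, adjusted p = 1.48e-09, edgeR), in 11 of 11 TNF libraries above every GM-CSF library. Igf1 was 0.99 higher (SE 0.19, adjusted p = 0.000143), in 9 of 11 TNF libraries above every GM-CSF library. Trem2 was lower in TNF by less than the fold limit (log2 difference -0.27, SE 0.07, adjusted p = 0.00269). For the genes that were not called, the 95% intervals of the difference were -0.675 to 0.16 for Apoe, -0.30 to 0.42 for Gpnmb, -0.73 to 0.42 for Spp1, -0.30 to 0.26 for Lpl, -0.49 to -0.05 for Clec7a, -0.09 to 0.14 for Tyrobp and -0.10 to 0.20 for Cd9. Scaling by total counts shifted the median of all genes in this comparison from -0.02 to -0.19 and the share of calls that were higher from 50.9% to 31.4%. Cst7 (0.715) and Igf1 (0.815) were called as well under it.

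Spp1 differed between libraries by title code. In medium, the 3 libraries coded 2B had 11418 to 16915 CPM and the 6 others 3578 to 6781 CPM. In TNF the 2B libraries had 12283 to 23216 CPM against 6050 to 7608 CPM in the 8 others, and in GM-CSF 13123 to 16644 CPM against 6315 to 10871 CPM in the 6 others. The codes did not overlap in any of the 3 groups. For Igf1 the same held, with 468 to 501 CPM in the 2B medium libraries against 242 to 354 CPM in the others. The 2B libraries were also apart from the others for Cd9 in medium and TNF, Trem2 in medium and Cst7 in TNF. For Apoe, Tyrobp, Lpl, Clec7a and Gpnmb they overlapped the others in every group. What share of all genes separates by this code was not counted, so these values cannot show whether the separation is particular to these genes. What the code stands for is not given in the labels. With the code as a factor, Spp1 was 0.35 higher with TNF (adjusted p = 0.0202, edgeR) and 0.49 higher with GM-CSF (adjusted p = 0.00317), both under the fold limit. Among codes 1A and 1B alone, Spp1 passed with GM-CSF (log2 fold change 0.77, adjusted p = 0.00221).

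Markers of other cells moved with the cytokines too. The 6 monocyte markers summed to 744 to 1864 CPM in medium, 1241 to 3995 CPM in TNF and 1492 to 3546 CPM in GM-CSF, and Fn1 made up nearly all of this sum, while the defining monocyte gene Ly6c2 was at 0 in medium and at most 2.75 CPM in TNF. The 8 border macrophage markers summed to 395 to 1111, 439 to 1243 and 351 to 1008 CPM, a sum in which Mrc1 (log2 fold change -1.70) and Lyve1 (-3.15) fell with TNF and Ms4a7 (-1.79) fell with GM-CSF. The 8 neutrophil markers summed to 0.445 to 14.2 CPM in medium, 2.10 to 115 CPM in TNF and 1.10 to 44.5 CPM in GM-CSF. The medians of this sum were 1.61, 7.89 and 9.83 CPM in that order. Among these markers S100a8 rose with TNF (2.18), with 4 of 11 TNF libraries above every medium library, and S100a9 (2.34) was not called. The summed microglia markers were lower in TNF (10158 to 13259 CPM) and GM-CSF (15860 to 18191 CPM) than in medium, and 9 of the 10 fell with TNF and 7 with GM-CSF. The part of these cells in the changes of the DAM genes was not tested.

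In microglia of LPS-treated adults, the DAM genes split in both directions. Of the 8 genes tested, 4 rose (Spp1, Cst7, Lpl, Apoe; 14.4% of all 12987 genes tested rose) and 2 fell (Cd9, Trem2; 13% fell). Gpnmb and Igf1 did not pass the filter on low counts. Trem2 had 1449, 1518, 1510 and 1425 CPM in the 4 PBS libraries and 714, 882, 733 and 647 CPM in the 4 LPS libraries. The groups did not overlap (log2 fold change -0.97, SE 0.09, adjusted p = 4.59e-06, edgeR). Tyrobp did not follow its receptor, with 987, 1021, 1037 and 1007 CPM in PBS and 1052, 995, 1016 and 982 CPM in LPS libraries. Its log2 fold change was 0.02, with a 95% interval of -0.10 to 0.13. Clec7a was spread widely within each group, 24.2, 21.1, 11.6 and 17.1 CPM in PBS against 33.2, 12.3, 12.98 and 25.1 CPM in LPS, and was not called (log2 fold change 0.20, 95% interval -0.52 to 0.92).

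Apoe rose with LPS, from 303, 250, 228 and 195 CPM in PBS to 759, 329, 649 and 614 CPM in LPS libraries. Every LPS library was above every PBS library, the second one by the least (log2 fold change 1.29, SE 0.26, adjusted p = 0.00409, edgeR). Lpl rose from 31.1, 23.1, 22.9 and 19.9 CPM to 93.0, 57.4, 50.9 and 57.3 CPM (log2 fold change 1.43, SE 0.21, adjusted p = 0.000390). Cst7 had 7.90, 8.96, 7.65 and 6.84 CPM in PBS and 47.0, 40.3, 36.7 and 45.9 CPM in LPS libraries. This was a 5.49-fold rise with little spread (log2 fold change 2.46, SE 0.12, adjusted p = 7.27e-08). Cd9 fell from 1171, 1122, 1173 and 1089 CPM to 555, 415, 463 and 455 CPM (log2 fold change -1.25, SE 0.09, adjusted p = 8.02e-07).

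Spp1 changed most among the DAM genes tested, from 1.16, 1.73, 0.895 and 1.30 CPM in PBS to 140, 22.2, 74.9 and 111 CPM in LPS libraries. The log2 fold change was 6.10 (SE 0.72, adjusted p = 0.000343, edgeR). The 4 PBS libraries held 69 Spp1 counts in all and the 4 LPS libraries 4706. The second LPS library was the lowest for both Spp1 and Apoe, and it was also the highest of the 4 for P2ry12, a receptor of resting microglia, with 1771 CPM against 787, 940 and 750 CPM in the others and 6165 to 7288 CPM in PBS. Without it, the log2 fold change of Spp1 was 6.42 and that of Apoe 1.49. Even in LPS microglia, the Spp1 level of 22.2 to 140 CPM stood beside 3578 to 16915 CPM in slice microglia in medium. Gpnmb had 2 counts in PBS and 18 in LPS libraries and Igf1 39 and 24, summed over 4 libraries each, and neither was tested in the main fit.

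Fn1, which counts as a monocyte marker here, was at 0.217, 0.722, 0.488 and 0.144 CPM in PBS and at 85.4, 24.2, 112 and 184 CPM in LPS libraries, so that the second LPS library was the lowest for it as for Spp1. The other monocyte genes were low in both groups. Ccr2 had 6.18 to 6.77 CPM in PBS and 2.81 to 4.20 CPM in LPS libraries. Chil3 had 3.40 to 6.93 and 0 to 0.724 CPM, and Ly6c2 0.244 to 1.16 and 0 to 0.218 CPM, in that order. Vcan went up near the floor, from 0 to 0.163 CPM to 0.170 to 0.364 CPM, and Plac8 overlapped between the groups. The 8 border macrophage markers summed to 10.3 to 16.1 CPM in PBS and 27.8 to 44.2 CPM in LPS libraries, and 3 of the 3 tested rose. Neutrophil markers went the other way, from 41.4 to 84.6 CPM in PBS to 2.96 to 9.12 CPM in LPS libraries. The part of these cells in the changes of Spp1 and Apoe was not tested.

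**Figure D3:**
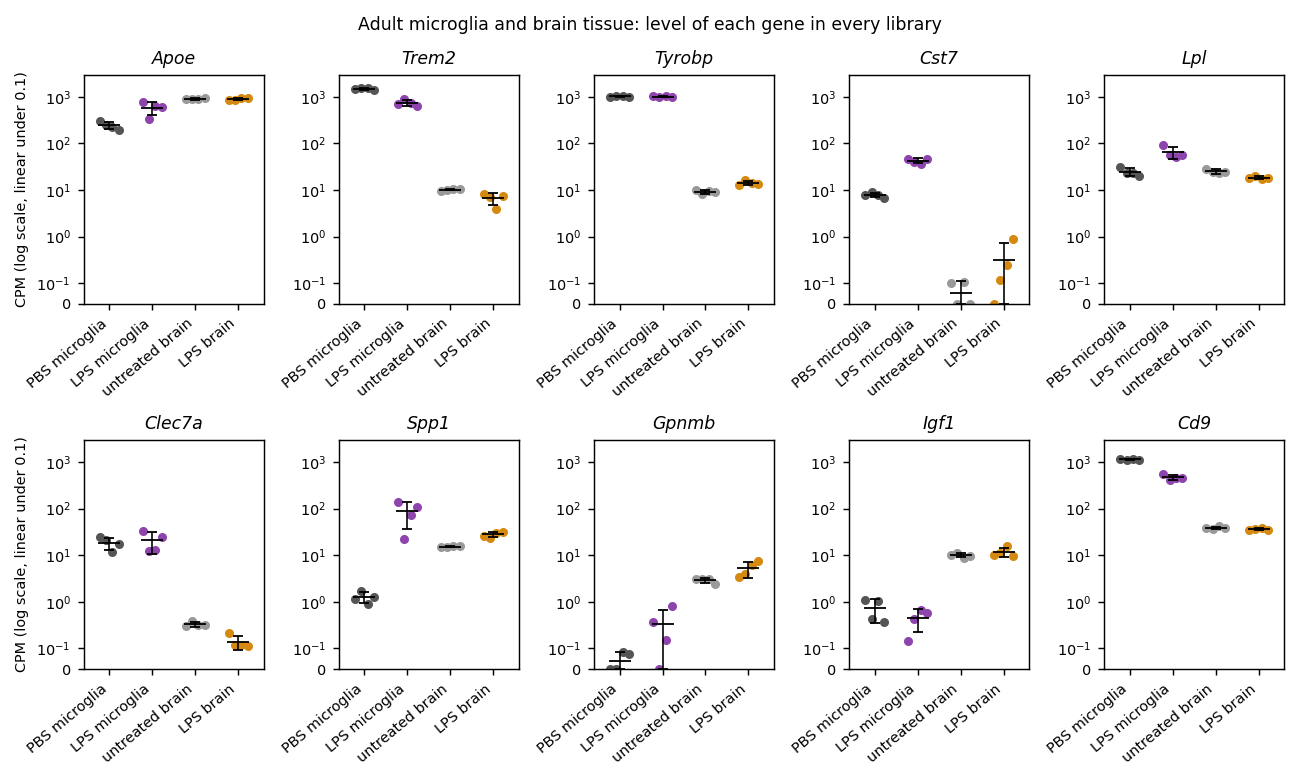
Level of each DAM gene (CPM, log scale and linear under 0.1) in every library of adult microglia (PBS and LPS, n = 4 each) and brain tissue (untreated and LPS, n = 4 each), with mean and SD bars. Spp1 in LPS microglia lay between 22.2 and 140 CPM against 0.895 to 1.73 CPM in PBS microglia, and Trem2 and Cd9 were lower in every LPS microglia library than in any PBS library.

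In whole brain tissue Spp1, Tyrobp and Gpnmb rose with LPS, 3 of the 8 genes tested (2.63% of all 15083 genes tested rose), and no DAM gene fell past both limits (0.550% of all genes fell). In bulk tissue a change in the number of cells and a change in RNA per cell cannot be told apart. Spp1 had 14.9, 14.9, 15.5 and 15.7 CPM in untreated and 26.4, 23.5, 30.5 and 31.8 CPM in LPS brain (log2 fold change 0.89, SE 0.10, adjusted p = 2.64e-05, edgeR). Tyrobp had 9.97, 8.07, 9.33 and 9.23 CPM in untreated and 12.97, 16.4, 13.8 and 13.6 CPM in LPS brain (log2 fold change 0.64, SE 0.11, adjusted p = 0.00159). Without the second LPS library it was 0.56, under the fold limit. Gpnmb had 3.02, 3.11, 3.11 and 2.41 CPM in untreated and 3.37, 3.99, 6.10 and 7.56 CPM in LPS brain (log2 fold change 0.86, SE 0.24, adjusted p = 0.0356). This rested on 115 and 185 counts and was lost when any untreated library or the fourth LPS library was left out, with an adjusted p of 0.139 without the latter.

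Trem2 was close to the limits in brain tissue. It had 9.67, 10.0, 10.4 and 10.5 CPM in untreated and 8.23, 7.15, 3.83 and 7.45 CPM in LPS brain, lower in 4 of 4 LPS libraries than in any untreated one. The log2 fold change was -0.58 (SE 0.17, adjusted p = 0.0433, edgeR), just under the fold limit and therefore not called, and DESeq2 gave -0.59 and called it. Lpl, which many brain cells express, was lower by less than the limit, with 28.8, 23.9, 23.2 and 24.0 CPM in untreated and 17.9, 19.9, 16.9 and 18.0 CPM in LPS brain (log2 fold change -0.45, SE 0.09, adjusted p = 0.00395). Apoe, an abundant astrocyte product in whole brain, had 875 to 958 CPM in untreated and 868 to 944 CPM in LPS brain, with a 95% interval of the log2 fold change of -0.07 to 0.08. Igf1 (0.23) and Cd9 (-0.09) were not called. Cst7 (2 and 11 counts over 4 libraries each) and Clec7a (13 and 5 counts) did not pass the filter. The 10 microglia markers summed to 317 to 364 CPM in untreated and 245 to 425 CPM in LPS brain. For other cells, the summed markers of border macrophages, neutrophils and oligodendrocytes did not overlap between the groups. Those of monocytes, lymphocytes, astrocytes, oligodendrocyte precursors, neurons, endothelial cells, and fibroblasts and pericytes did overlap. The 8 border macrophage markers summed to 6.19 to 8.40 CPM in untreated and 9.57 to 14.4 CPM in LPS brain, the 8 neutrophil markers to 1.36 to 3.11 and 4.67 to 9.56 CPM, and the 7 oligodendrocyte markers to 6192 to 6756 and 4654 to 5571 CPM. Their part in the changes of Spp1, Tyrobp and Gpnmb was not tested.

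**Figure D4:**
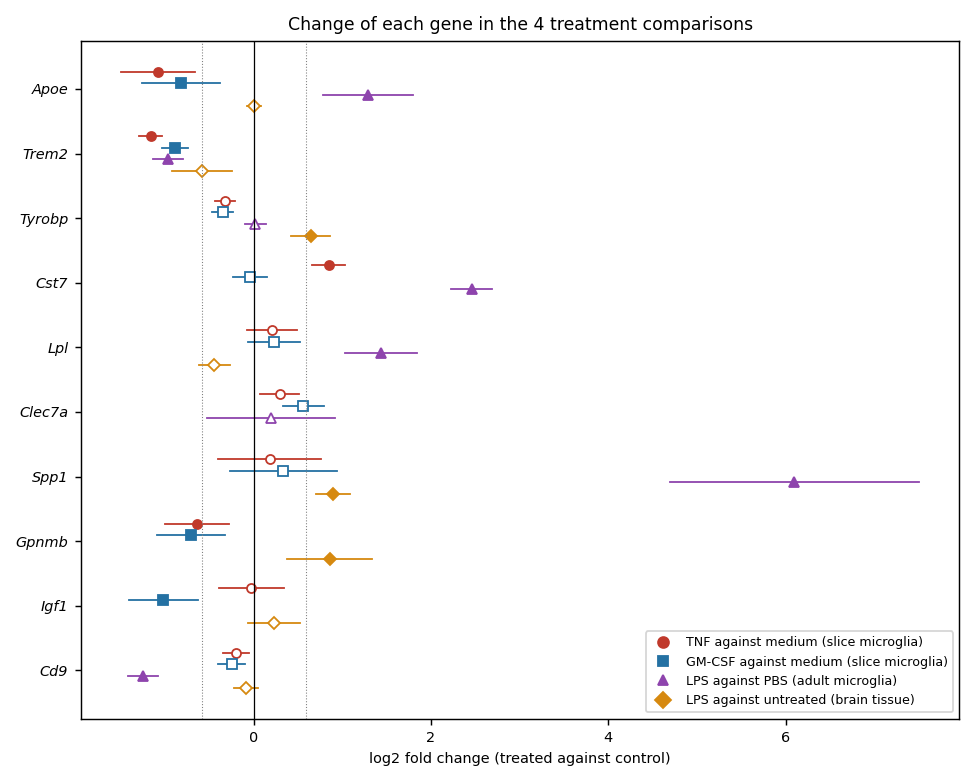
Log2 fold change of each DAM gene in the 4 treatment comparisons, with 95% intervals (estimate ± 1.96 SE); filled symbols are called, open ones are not, and dotted lines mark the 1.5-fold limit. Genes without a symbol for a comparison did not pass the filter on low counts. Trem2 lay between -1.16 and -0.58 in all 4 comparisons, while Apoe lay at -1.08 with TNF and at 1.29 with LPS in adult microglia.

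The LPS response of sorted microglia was then tested against that of brain tissue. In 3 of the 10 genes the LPS effect was higher in microglia (9.10% of 16676 genes), by 5.20 on the log2 scale for Spp1 (SE 0.73, adjusted p = 0.000116, edgeR), 1.87 for Lpl (SE 0.24, adjusted p = 1.29e-05) and 1.28 for Apoe (SE 0.26, adjusted p = 0.00153). In 2 it was lower (10.6% of all genes), Cd9 with -1.17 (SE 0.11, adjusted p = 2.39e-07) and Tyrobp with -0.63 (SE 0.11, adjusted p = 0.000188). Tyrobp was not called without the second LPS or the second untreated brain library. The Trem2 effects were not called different (log2 difference -0.40, 95% interval -0.78 to -0.01, adjusted p = 0.146). Cst7, Clec7a, Gpnmb and Igf1 were also entered, with few counts in 1 of the tables, and none was called.

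Whether TNF, GM-CSF and LPS moved the DAM genes together was tested as the difference between each cytokine effect in slice microglia and the LPS effect in adult microglia. Both tests use the same adult libraries and the same medium libraries. The agent cannot be told apart here from age, culture, the route of exposure (injection or slice medium), the sequencing run, the kind of counts and the starting level. For Spp1 the starting level was 8423 CPM on average in medium and 1.27 CPM in PBS microglia. Of the 10 genes, 5 differed between TNF and LPS, of which 4 were lower with TNF (8.09% of 13473 genes) and 1 was higher (5.65%). The differences were -5.86 for Spp1 (SE 0.73, adjusted p = 1.60e-07, edgeR), -2.32 for Apoe (SE 0.385, adjusted p = 1.96e-05), -1.56 for Cst7 (SE 0.18, adjusted p = 2.24e-08), -1.18 for Lpl (SE 0.275, adjusted p = 0.00152) and 1.10 for Cd9 (SE 0.135, adjusted p = 5.15e-08). For GM-CSF against LPS, 4 genes were lower (6.75% of all genes) and 1 higher (2.86%): Spp1 (-5.71), Cst7 (-2.46), Apoe (-2.07), Lpl (-1.17) and, higher, Cd9 (1.04). The effects on Trem2 were not called different, with a 95% interval of the difference of -0.40 to 0.11 for TNF and -0.145 to 0.37 for GM-CSF.

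Side by side, Trem2 was the DAM gene that fell in all 3 treatments of sorted microglia. Cst7 rose with TNF and by a larger fold with LPS, and had a log2 fold change of -0.04 with GM-CSF. Its mean level was 579 CPM in medium and 1040 CPM in TNF, beside 7.83 CPM in PBS and 42.5 CPM in LPS microglia. Apoe fell with both cytokines in slices and rose with LPS in adults. Lpl and Spp1 rose with LPS and were not called with either cytokine, and Cd9 fell with LPS and was lower by less than the limit with both cytokines. Of the 4 genes whose promoter windows hold TGANTCA, Cst7 rose and Trem2 and Gpnmb fell with TNF, and Igf1 was not called.

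The remaining genes of the DAM signature and the genes around the 10 members were described by counts, since the lists were chosen with earlier results known. Each count of a list stands against the share of all genes called, which was 9.10% higher and 11.7% lower with TNF, 4.84% and 5.96% with GM-CSF, 14.4% and 13% with LPS in adult microglia, and 2.63% and 0.550% in brain tissue. The shares of a list include its genes that were not tested. Of 24 other DAM genes, 5 rose and 5 fell with TNF, 2 rose and 5 fell with GM-CSF, and 12 rose and 5 fell with LPS in adult microglia. In the order higher and lower, these were 20.8% and 20.8% of the list with TNF, 8.33% and 20.8% with GM-CSF, and 50.0% and 20.8% with LPS. Their median log2 fold changes were 0.23, -0.27 and 0.68, beside -0.03, -0.04 and 0.01 for all genes tested. Fth1, the ferritin heavy chain (2.04), and Ch25h, cholesterol 25-hydroxylase (3.99), rose with TNF, and the adhesion molecule Cadm1 fell with TNF (-1.34) and GM-CSF (-1.22). Ccl6, a chemokine, rose with GM-CSF (2.19) and fell with LPS in adult microglia (-1.50), and Cd63, a lysosomal tetraspanin (1.77), and Ctsl, cathepsin L (1.56), rose with LPS. In brain tissue 5 of the 24 rose and 0 fell, led by B2m (1.10).

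Of 13 signalling partners of TREM2, TYROBP and CLEC7A, 2 rose and 1 fell with TNF, 1 rose and 1 fell with GM-CSF, 2 rose and 0 fell with LPS in adult microglia, and 3 rose and 0 fell in brain tissue, where the share that rose was 23.1%. Trem1, a related receptor that amplifies inflammation and also pairs with TYROBP, rose with TNF (3.23) and GM-CSF (2.98). In adult microglia Trem1 rose too, by a fitted 8.70 on the log2 scale (SE 1.29) from levels near 0. Inpp5d, the phosphatase SHIP1 that restrains this signal, fell with TNF (-0.94). The partners that rose in brain tissue were Lyn (0.615), Spi1 (0.89) and Plcg2 (0.64).

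Of 24 lipid-handling genes, 3 rose and 6 fell with TNF, 1 rose and 8 fell with GM-CSF, and 7 rose and 0 fell with LPS in adult microglia. That was 12.5% and 25.0% of the list with TNF, 4.17% and 33.3% with GM-CSF, and 29.2% and 0.00% with LPS. Apoc4, a neighbour of Apoe in the apolipoprotein cluster, fell with TNF (-3.15) and GM-CSF (-1.83). Nr1h3, the liver X receptor alpha, a known activator of Apoe, rose with TNF (3.09) and fell with GM-CSF (-1.45). Pparg rose with GM-CSF (3.28). Both were low, Nr1h3 with 0 to 1.87 CPM in medium and 2.91 to 16.1 CPM in TNF. Pparg had 0 to 2.74 CPM in medium and 5.98 to 23.7 CPM in GM-CSF. Angptl4, an inhibitor of lipoprotein lipase, rose with LPS both in adult microglia (3.83) and in brain tissue (1.52). Its levels in adult microglia were low, with 0.0814 to 0.217 CPM in PBS and 1.79 to 3.11 CPM in LPS libraries.

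Among 17 partners of SPP1 and IGF1, 3 rose and 4 fell with TNF, 0 rose and 3 fell with GM-CSF, and 2 rose and 3 fell with LPS in adult microglia. With LPS these were 11.8% and 17.6% of the list, beside 14.4% and 13% of all genes. Cd44, a receptor of osteopontin, rose with TNF (1.35) and LPS (2.95), and the integrin subunits Itgb5 (-1.47) and Itgb3 (-1.27) fell with TNF. In adult microglia Cd44 was low, and its 0.732 to 2.31 CPM in PBS overlapped its 1.45 to 17.3 CPM in LPS libraries. Of 7 cystatins and cathepsins, Ctsc, cathepsin C and a target of the CST7 product, rose with TNF (1.68), GM-CSF (0.78) and LPS in adult microglia (1.92) and in brain tissue (1.35). Cst3, the secreted cystatin C, fell with TNF (-0.87) and LPS in adult microglia (-0.90). Among 11 tetraspanins, Cd9 included, Cd37 fell with both cytokines (-0.98 and -0.605) and Cd82 rose with TNF (0.875) and fell with GM-CSF (-1.08).

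Genes of resting microglia were counted as well. Of 15 such genes, 13 fell and 0 rose with TNF, 11 fell and 0 rose with GM-CSF, and 8 fell and 1 rose with LPS in adult microglia, with medians of -1.56, -0.82 and -0.70. The shares that fell were 86.7%, 73.3% and 53.3%, beside 11.7%, 5.96% and 13% of all genes. P2ry12 fell with TNF (-3.16), GM-CSF (-1.56) and LPS in adult microglia (-2.62) and in brain tissue (-1.57). Among 12 TGF-beta and MITF/TFE factors, 2 rose and 5 fell with each cytokine and 2 rose and 2 fell with LPS in adult microglia, where each direction held 16.7% of the list beside 14.4% and 13% of all genes. Tfec rose in all 3 (1.56, 1.41 and 1.99), and Tgfbr1, a receptor of TGF-beta, fell in all 3 (-1.06, -0.88 and -1.01).

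**Figure D5:**
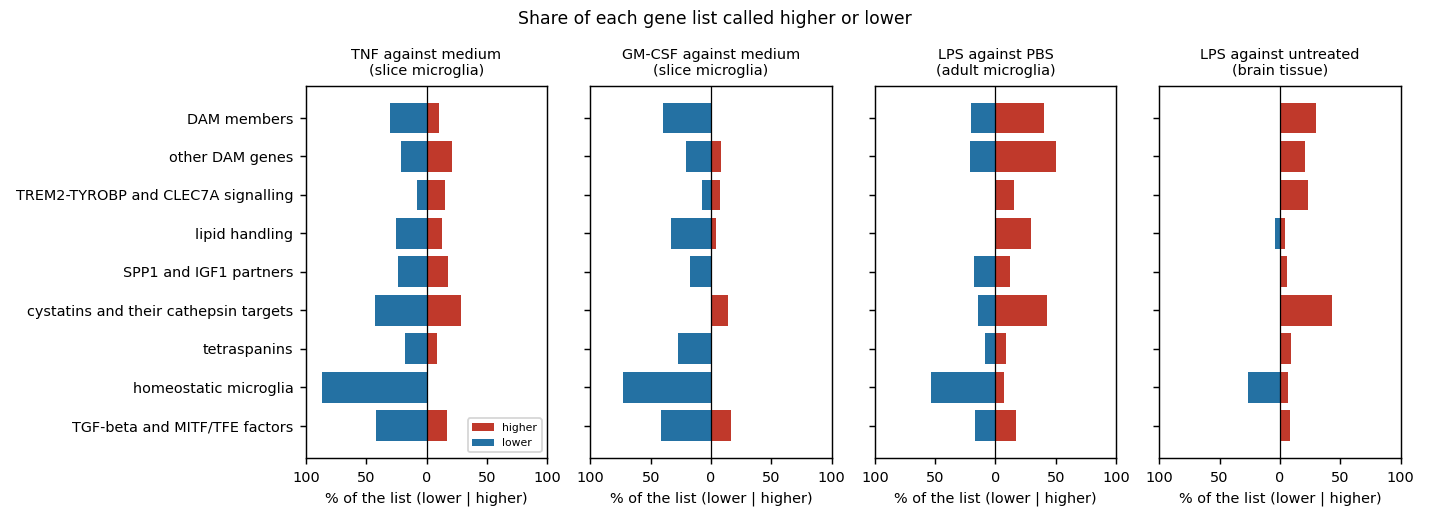
Percent of the genes of each list that were called higher (red, to the right) or lower (blue, to the left) in the 4 treatment comparisons, out of all genes of the list, tested or not. Resting ("homeostatic") microglia genes were lower in 13 of 15 with TNF and 11 of 15 with GM-CSF, whereas the 10 DAM genes split into 4 higher and 2 lower with LPS in adult microglia.

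Over the 10539 genes tested in all 3 comparisons of sorted microglia, the genes with the most similar log2 fold changes were named for each member by the Euclidean distance of the 3 values. Nearest to Trem2 were Izumo4 (distance 0.07) and Cyb561a3 (0.10), and nearest to Tyrobp were Strn (0.03) and Aig1 (0.05). Cst7 lay closest to Sdc3 (0.20) and Gpr35 (0.24). Apoe had no close match, with Lrrc27 at 0.38 and Tha1 at 0.44, and Spp1 was the most isolated, with Cd244a at 0.57 and Itgal at 1.01. For Lpl the nearest were Ints2 (0.13) and Rpsa (0.16), for Clec7a Pkdcc (0.03) and Ppp1r21 (0.07), and for Cd9 Ubald2 (0.13) and Thnsl2 (0.15). Each distance rests on 3 values per gene and carries no test.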

How the data were processed

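RNA sequencing counts of 45 mouse libraries were analysed from 3 tables (SMART-Seq and Nextera XT libraries for microglia, TruSeq mRNA libraries for brain tissue). For slice microglia the authors deposited whole-number counts per gene, and the submitters' processing notes name mm10, STAR 2.7.0a, featureCounts and Subread 1.6.4. For adult microglia and brain tissue the authors deposited estimated counts (expected counts, not all whole, 70872 and 69680 values) on mm10, and the counter is not given in the sources used here. They were rounded, which changed table totals by 0.00107% and 0.00113%. The brain file also has 92 lines that name no gene and hold 0 counts.

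The main test was edgeR 4.0.16 (R 4.3.3) with TMM scaling, filterByExpr (minimum count 10, total 15), glmQLFit and glmQLFTest, and Benjamini-Hochberg adjustment over all genes tested. Genes were called at an adjusted p under 0.05 and a change over 1.5-fold. The 29 slice libraries shared 1 fit. Differences between effects were interaction contrasts on joined tables. SE was taken as the log2 fold change over the square root of F. DESeq2 1.42.0, limma 3.58.1, other scalings and filters, title codes, a replicate block and left-out replicates were alternatives. The scripts were tested on simulated data. Motif windows were read by script from RefSeq. Named genes were the 10 members, up to 3 called genes per list and direction with the smallest p, the 2 nearest genes per member, and markers a result turns on. Of these, some are left unnamed for length. The members and lists were chosen with earlier results of these data known. Counting error sets the precision of low genes, and no 2 libraries of a group agreed within sampling noise (lowest chi-square per gene 1.80).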

Additional observations from a re-analysis of the deposited data

Results flagged for a closer look

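Of 60 sets of libraries (a DAM gene in a group of 4 to 10), 5 had a highest or lowest library apart from the rest by Dixon's test at 95%, a rule that picks about 1 in 20 sets by chance. In LPS microglia, Lpl was highest in 1 library at 93.0 CPM. In untreated brain, 1 library had Lpl at 28.8 CPM, 1 had Clec7a at 0.389 CPM and 1 had the lowest Gpnmb level, 2.41 CPM. In LPS brain, 1 library had Clec7a at 0.211 CPM. The Clec7a values rest on 4 and 2 counts.

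The LPS effect differed between adult microglia and brain tissue for 5 DAM genes by the test of the difference itself (edgeR interaction contrast, in log2 units, microglia minus brain). It was 1.28 for Apoe, 1.87 for Lpl and 5.20 for Spp1, and -0.63 for Tyrobp and -1.17 for Cd9. Every LPS microglia library was above every PBS library for Apoe, Lpl and Spp1. The 2 tables differ in tissue, library kit, sequencing run and control (PBS-injected or untreated), which cannot be told apart from the difference.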

How the results depend on the processing

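The calls on DAM genes were recomputed under each alternative. Of the values of single genes, 1016 kept their direction and their side of the limits, 16 lost a call, 20 gained one and 33 changed sign, and the cause was not tested. Without the fold limit, TNF gave 2 genes higher and 5 lower, GM-CSF 1 higher and 6 lower, TNF against GM-CSF 1 lower and brain tissue 2 lower. GM-CSF also gave 1 higher on total counts, and 1 higher (Spp1) and 2 lower with codes 1A and 1B alone. Brain tissue gave 1 lower (Trem2) with DESeq2, median-ratio size factors or no low-count filter.

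Leaving out each adult or brain library in turn (no slice library was left out, as those groups hold 9 to 11) kept 4 higher and 2 lower in adult microglia. It gave 2 to 3 higher and 0 to 1 lower in brain tissue, and 3 to 4 higher and 1 to 2 lower for microglia against brain. Without any 1 adult library, each cytokine against LPS gave 1 higher and 4 lower. Gpnmb in brain tissue ranged from 0.623 to 1.03 (limma-voom 0.776, not called).

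Values that changed sign were mostly near 0. For TNF, Igf1 was 0.0574 with the title code as a factor and 0.102 with codes 2A and 2B alone. For GM-CSF, Cst7 was 0.0676 on total counts and Lpl -0.0453 with codes 1A and 1B. For TNF against GM-CSF, total counts gave Tyrobp -0.146, Gpnmb -0.112 and Cd9 -0.12, no low-count filter gave Tyrobp -0.00246, codes 1A and 1B gave Lpl 0.0799 and Gpnmb -0.00585, and codes 2A and 2B gave Tyrobp -0.0256, Spp1 0.0133 and Cd9 -0.0812. In adult microglia Tyrobp was -0.00275 without the filter, and -0.00834 to 0.0342 without 1 library, where Clec7a was -0.124 to 0.384. In brain tissue Apoe was -0.00279 with DESeq2 and median-ratio size factors, -0.0112 without the filter and -0.0242 to 0.0276 without 1 library. Cst7 in microglia against brain was -0.21 with DESeq2 and -0.41 to 1.43 without 1 library, and Clec7a in TNF against LPS -0.0397 to 0.447.

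The fold limit moved the counts over all genes most, for TNF from 1030 higher and 1323 lower to 2247 and 2229, for GM-CSF from 548 and 674 to 1374 and 1518, for TNF against GM-CSF from 933 and 900 to 1804 and 1682, for LPS in adult microglia from 1872 and 1691 to 3466 and 3237, for LPS in brain tissue from 396 and 83 to 914 and 619, and for microglia against brain from 1518 and 1771 to 2425 and 2711. GM-CSF gave 389 lower with codes 2A and 2B, TNF against GM-CSF 1514 lower on total counts and 1353 without the filter, brain tissue 230 higher with the stricter filter, and GM-CSF against LPS 691 higher, from 386, with limma-voom and group weights. Total counts moved the share of GM-CSF calls that were higher from 44.8% to 63.9%, and for TNF against LPS from 41.1% to 29.6%.

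Deviations of libraries with the same replicate number correlated at -0.0779 to 0.184. In slices these numbers follow the title codes only in part, as replicate 5 is coded 1B in TNF and 2A in medium. The numbers therefore cannot decide whether slice libraries were paired. With the replicate block, Gpnmb in brain tissue was not called (0.817, adjusted p = 0.0688, edgeR), which left 2 genes higher there. The counts of DAM genes in the other comparisons were 1 higher and 3 lower (TNF), 0 and 4 (GM-CSF), 2 and 0 (TNF against GM-CSF) and 4 and 2 (adult microglia), as without the block. Low counts limit Gpnmb and Igf1 in adult microglia and Cst7 and Clec7a in brain tissue.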
